A study of Mus musculus with 2 samples.

Results

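The miR-135 family of the mouse consists of 3 microRNA (miRNA) genes, Mir135a-1, Mir135a-2 and Mir135b, and its counts are described here in the hippocampus of 25-day-old mice. The members were found by their Ensembl identifiers among the 2202 miRNA genes of the GENCODE M21 annotation that the count tables list, and all 3 were present in both tables. The samples were 2 tissue samples of female B6CASTF1/J mice, the F1 cross of C57BL/6J with CAST/EiJ, sequenced as short RNA under 30 bases and labelled biological replicates 2 and 1 of a single group. The labels place the tissue in a layer of the hippocampus without naming the layer, and list both samples under 1 donor entry without saying whether it stands for an animal or for the strain. An SD over the 2 libraries therefore measures the spread between these samples, whether or not they come from separate animals. The family was chosen with earlier results of these data known, with its members selected on their identifiers and the family as a whole on the levels below in CPM (counts per 1000000 counts in miRNA genes). Its levels and its differences between the libraries are therefore a description and carry no test.

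MiRNAs are short RNAs cut from a hairpin precursor, and the bases near the 5′ end of the mature strand, the seed, pair with target messages. miR-135a and miR-135b are known to share their seed, and miR-135a is made from hairpins at separate loci. In mouse serotonin neurons miR-135 is known to repress the serotonin transporter Slc6a4 and the receptor Htr1a, and in rodent hippocampal neurons it has been tied to dendritic spine remodelling and to the synaptic complexin proteins.

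The mature sequences of the family are shown because they decide which reads a locus count can hold. The RefSeq annotation of GRCm38.p6 gave 4 distinct mature sequences for the 3 genes, printed 5′ to 3′ with the seed, bases 2 to 8, in capitals.
miR-135a-5p: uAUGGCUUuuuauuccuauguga
miR-135a-1-3p: uAUAGGGAuuggagccguggcg
miR-135a-2-3p: uGUAGGGAuggaagccaugaa
miR-135b-3p: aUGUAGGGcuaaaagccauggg
The other mature product named for the family, miR-135b-5p, had no entry in the RefSeq annotation used here, so its sequence is not printed. The seed that miR-135a and miR-135b are known to share was therefore not compared. MiR-135a-5p, of 23 bases, lay in the hairpins of both Mir135a-1 and Mir135a-2, whereas each of the 3p sequences lay in 1 hairpin of the RefSeq table. The 4 seeds printed above differed from each other. Between the 3p sequences the longest shared run was 8 bases, for miR-135a-2-3p and miR-135b-3p, and the shortest was 5 bases, for miR-135a-1-3p and miR-135b-3p.

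The Mir135a hairpins shared an identical run of 24 bases, which covers all of miR-135a-5p and 1 base beyond it. This run spans positions 17 to 40 of the 90-base Mir135a-1 hairpin and positions 23 to 46 of the 100-base Mir135a-2 hairpin. Of the windows of 22 bases in the Mir135a-1 hairpin, 3 of 69 also occurred in another miRNA hairpin, and in the Mir135a-2 hairpin 3 of 79 did, in each case in the other Mir135a hairpin. None of the 76 such windows of the 97-base Mir135b hairpin occurred elsewhere in the table. Reads that fit more than 1 place were kept apart from every gene row, so a full-length miR-135a-5p read that stays within the shared run could be assigned to neither Mir135a gene. The Mir135a-1 and Mir135a-2 counts are therefore counts of locus-specific reads and no measure of miR-135a as a whole. No exact match of 22 bases put such a limit on Mir135b, whose longest runs shared with Mir135a-1 and Mir135a-2 were 14 and 13 bases. The search covered exact matches in miRNA hairpins, and neither matches with differing bases nor the rest of the genome. Each count is for a whole gene, so how its reads divide between 5p and 3p was not seen.

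**Figure D1:**
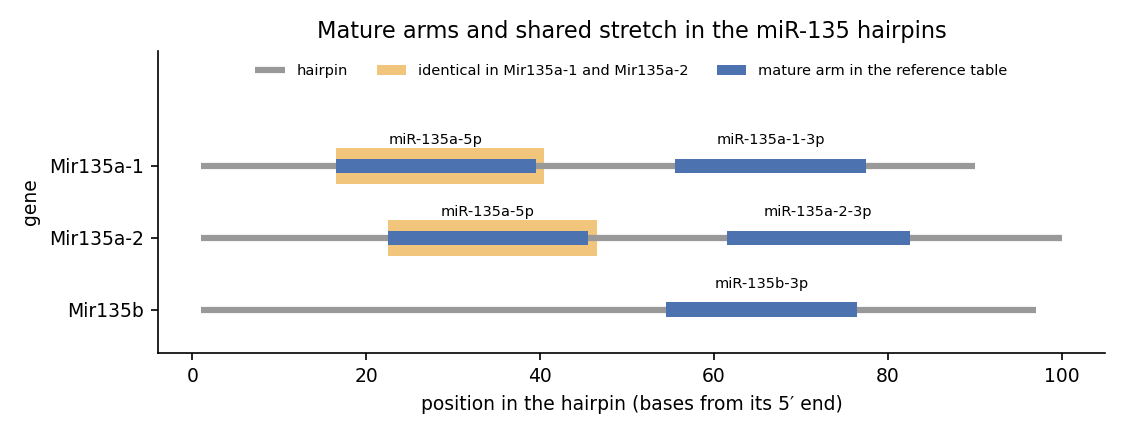
Position of the annotated mature sequences (blue) and of the run identical in both Mir135a hairpins (yellow) along the hairpins of the 3 genes, in bases from the 5′ end of each hairpin (grey). The yellow run of 24 bases covers miR-135a-5p at both Mir135a loci, and the 3p sequences lie outside it. MiR-135b-5p had no entry in the annotation and is not drawn.

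The count tables held 4266963 reads in miRNA genes in replicate 2 and 5481053 in replicate 1, so that 1 count was worth 0.234 and 0.182 CPM. Reads with several places made up 46.4% and 41.9% of the tables. A gene was called detected at 2 CPM or more in each library, which 433 genes reached, all 3 members among them. The labelled tissue was set against marker lists: all 9 neuron-enriched genes with a single locus were detected, with a summed level of 58027 CPM in replicate 2 and 43224 CPM in replicate 1, with the highest means over the libraries in Mir149 and Mir132. Mir132 was at 4038 CPM in replicate 2, below Mir137 at 14089 CPM, and at 17142 CPM in replicate 1.

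Mir135b carried most of the counted reads of the family. Mir135b (ENSMUSG00000065435.1) lies on chromosome 1 from 132198088 to 132198184 on the plus strand (mm10) in an intron of Lemd1, a LEM-domain gene transcribed on the same strand, and of the overlapping protein-coding entry AC124108.1. It had 4346 counts in replicate 2 and 216 in replicate 1. These were 1019 CPM (exact Poisson 95% interval 988 to 1049) in replicate 2 and 39.4 CPM (34.3 to 45.0) in replicate 1. Mir135b was thus 25.8-fold higher in replicate 2 (exact 95% interval 22.5 to 29.8, counting error only), a log2 ratio of 4.66 on the CPM + 1 scale. Its mean of 529 CPM had an SD of 692 (n = 2), larger than the mean itself. By level it ranked 108 of 2202 genes in replicate 2 and 249 in replicate 1.

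Mir135a-1 showed a difference of similar size at a lower level. Mir135a-1 (ENSMUSG00000065407.1) lies on chromosome 9 from 106154124 to 106154213 on the plus strand, in an intron of the noncoding antisense gene D030055H07Rik, and overlaps an exon of Glyctk, which encodes glycerate kinase and runs on the opposite strand. It had 702 counts in replicate 2 and 42 in replicate 1. The levels were 165 CPM (153 to 177) in replicate 2 and 7.66 CPM (5.52 to 10.4) in replicate 1, 21.5-fold higher in replicate 2 (15.7 to 30.1). Over both libraries it averaged 86.1 ± 111 CPM (SD, n = 2). The nearest miRNA gene, Mirlet7g of the let-7 family, lies 24.6 kb away on the same strand. Mirlet7g was at 82569 CPM in replicate 2 and 57503 CPM in replicate 1, a log2 ratio of 0.52 beside 4.26 for Mir135a-1, so these neighbours did not differ between the libraries to the same extent.

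Mir135a-2, the second source of miR-135a, differed far less between the libraries. Mir135a-2 (ENSMUSG00000065524.1) lies on chromosome 10 from 92072086 to 92072185 on the minus strand, in an intron of Rmst, a long noncoding RNA that in human cells is known to take part in neuronal differentiation with SOX2. In mouse, Mir135a-2 is known from the developing midbrain, where it acts on Lmx1b and Wnt signalling. It had 110 counts in replicate 2 and 84 in replicate 1, which were 25.8 CPM (21.2 to 31.1) in replicate 2 and 15.3 CPM (12.2 to 19.0) in replicate 1. The fold was 1.68 (1.25 to 2.26) and the mean 20.6 ± 7.39 CPM (SD, n = 2). Rmst holds 1 other miRNA gene of the tables, Mir1251, named here for its position in an intron on the same strand, from 92137140 to 92137223. Mir1251 had 76 counts in replicate 2 and 6 in replicate 1, or 17.8 and 1.09 CPM, a fold of 16.3 (7.14 to 45.7). The fold intervals of the Rmst neighbours did not overlap, and Mir1251 was below the detection level in replicate 1.

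**Figure D2:**
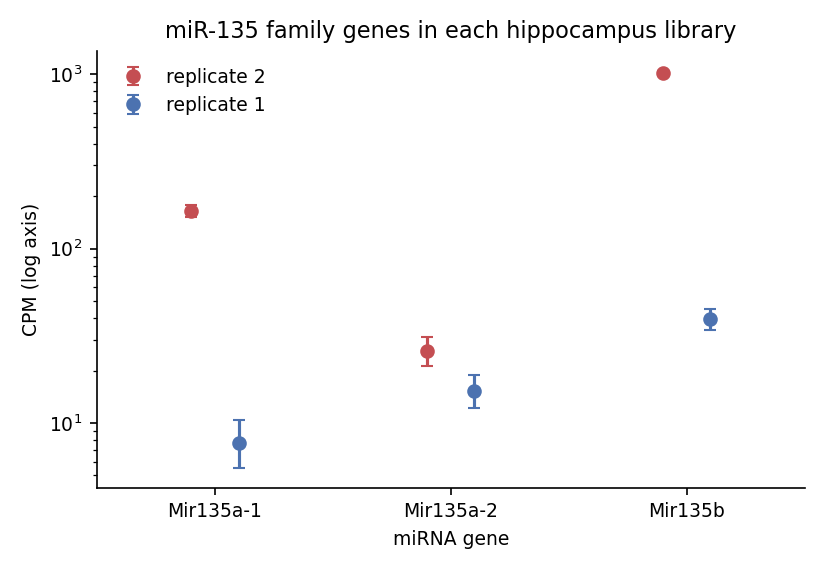
CPM of each miR-135 gene in replicate 2 (red) and replicate 1 (blue) on a log axis, with exact Poisson 95% intervals that cover counting error only. Mir135b and Mir135a-1 sit more than 20-fold apart between the libraries, and Mir135a-2 is at 25.8 CPM in replicate 2 and 15.3 CPM in replicate 1.

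The order of the family depended on the library below its top member. In replicate 2 the order was Mir135b, Mir135a-1, Mir135a-2, and in replicate 1 it was Mir135b, Mir135a-2, Mir135a-1. A miRNA read spans a whole mature molecule, so these levels were compared as CPM without division by length. Counts of Mir135a-2 were 0.157 of those of Mir135a-1 in replicate 2 (exact 95% interval 0.127 to 0.192) and 2.00 times those in replicate 1 (1.37 to 2.97). The ratio of Mir135a-1 to Mir135a-2 was accordingly 12.8-fold larger in replicate 2 than in replicate 1 (8.21 to 19.9), whereas counts of Mir135b relative to Mir135a-1 were close in the libraries, at 6.19 (5.72 to 6.71) in replicate 2 and 5.14 (3.68 to 7.34) in replicate 1. Relative to Mir135a-2, Mir135b counts were 39.5-fold higher in replicate 2 (32.7 to 48.2) and 2.57-fold higher in replicate 1 (1.99 to 3.35). In counted reads, Mir135b was thus above both Mir135a loci in each library beyond counting error. The order of the Mir135a loci to each other turned between the libraries. Because the Mir135a rows leave out reads within the shared run, Mir135b and Mir135a counts come from unlike pools of reads. Their ratios are therefore no ratios of miR-135b to miR-135a molecules.

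In sum the family had 5158 counts in replicate 2 and 342 in replicate 1, at 1209 and 62.4 CPM. That is 0.121% of the reads in miRNA genes in replicate 2 and 0.00624% in replicate 1. Mir135b made up 84.3% of the family's counts in replicate 2 (83.2 to 85.2, exact Clopper-Pearson bounds at 95%) and 63.2% in replicate 1 (57.8 to 68.3). Mir135a-1 held 13.6% (12.7 to 14.6) in replicate 2 and 12.3% (9.0 to 16.2) in replicate 1, shares with overlapping intervals. Mir135a-2 held 2.13% (1.76 to 2.56) in replicate 2 and 24.6% (20.1 to 29.5) in replicate 1. Because Mir135a rows leave out reads of the shared run, these are shares of the counted reads and not of the miR-135 molecules. Fewer cells that hold a miRNA and less of it per cell cannot be told apart in such tissue samples.

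Of the 3 members, 2 were at least 2-fold higher in replicate 2 (a log2 ratio of CPM + 1 of at least 1), where 26.1% of the 433 detected genes were as well. At least 2-fold lower levels in replicate 2 were seen in 14.8% of the detected genes and in no member. In either direction 2 of 3 members were at least 2-fold apart, as were 40.9% of the detected genes. Most of the library differences among detected genes were smaller than those of Mir135b and Mir135a-1. Ordered by log2 ratio from the highest, Mir135b ranked 8 and Mir135a-1 ranked 10 of 433, with 4.66 and 4.26, and Mir135a-2 ranked 152 with 0.71. The median log2 ratio was 4.26 for the members and 0.27 for all detected genes, whose values ran from -5.37 to 7.04. With 1 library on each side and a single group, none of these differences speaks of a condition.

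**Figure D3:**
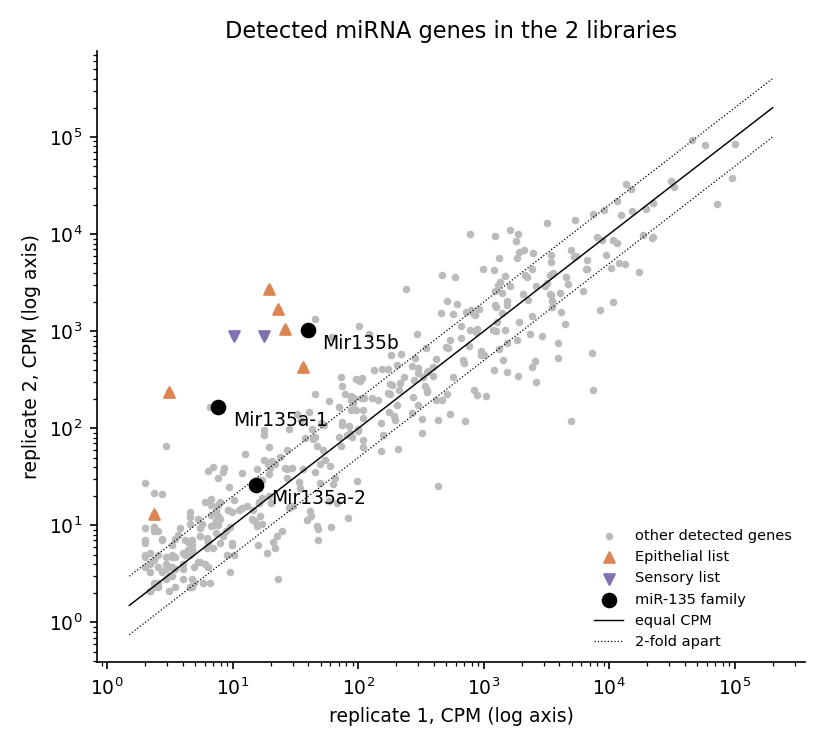
CPM of the 433 detected miRNA genes in replicate 2 (vertical) against replicate 1 (horizontal), both on log axes, with the solid line at equal CPM and the dotted lines 2-fold apart. The black points are the miR-135 genes: Mir135b and Mir135a-1 lie above the upper dotted line, as do the detected genes of the epithelial (orange) and sensory (purple) lists, and Mir135a-2 lies between the dotted lines.

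The genes most like each member were taken as the 3 detected genes nearest to it over log2(CPM + 1) in the 2 libraries, which is likeness over 2 points only. Mir135b was closest to Mir130b, at a distance of 0.42, with 1321 CPM in replicate 2 and 45.4 CPM in replicate 1, followed by the miR-200 family gene Mir200b (0.57) and Mir18 of the Mir17-92 cluster (0.67). Mir135a-1 was closest to Mir701, at a distance of 0.20, with 165 CPM in replicate 2 and 6.57 CPM in replicate 1, and then to Mir200a (1.20) and Mir5099 (1.36). Mir135a-2 had nearer neighbours, Mir1264 (0.11), Mir1969 (0.20) and Mir7j (0.23), all between 25.3 and 29.5 CPM in replicate 2 and between 16.2 and 17.0 CPM in replicate 1. Because these genes were picked for levels like the member's in both libraries, their ratios between the libraries follow from the choice.

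Other miRNAs with copies at several loci give a measure of how far the Mir135a copies part from each other. For Mir135a the log2 ratio between the libraries differed by 3.54 between the copies. Among 20 other families whose loci were all detected, this gap had a median of 0.57 and ran from 0.01 to 7.42. A gap at least as large was found in 2 of the 20: the oligodendrocyte miRNA Mir219a, at 7.42, and Mir181a, at 3.74. The brain families Mir128 and Mir138, whose copies also share a mature sequence, had gaps of 0.46 and 0.45. Their copies moved together, by log2 ratios of 0.91 and 1.37 for Mir128-1 and Mir128-2, and of -1.26 and -1.71 for Mir138-1 and Mir138-2.

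The level left to copies also varied widely. The Mir128 loci had mean levels of 16713 and 4431 CPM and the Mir138 loci of 4395 and 1907 CPM. For the neuronal Mir9 the means were 32.4, 1.84 and 118 CPM at Mir9-1, Mir9-2 and Mir9-3. Mir124a-1, Mir124a-2 and Mir124a-3, the loci of the main neuronal miRNA, were at 3.99, 1.71 and 0.834 CPM. The Mir135a loci, at 86.1 and 20.6 CPM, fell between these. In all, 44 of the 56 loci of the 27 other families compared were detected. Of the 391 detected genes that matched the RefSeq table by symbol, 45 had a mature sequence at more than 1 locus.

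**Figure D4:**
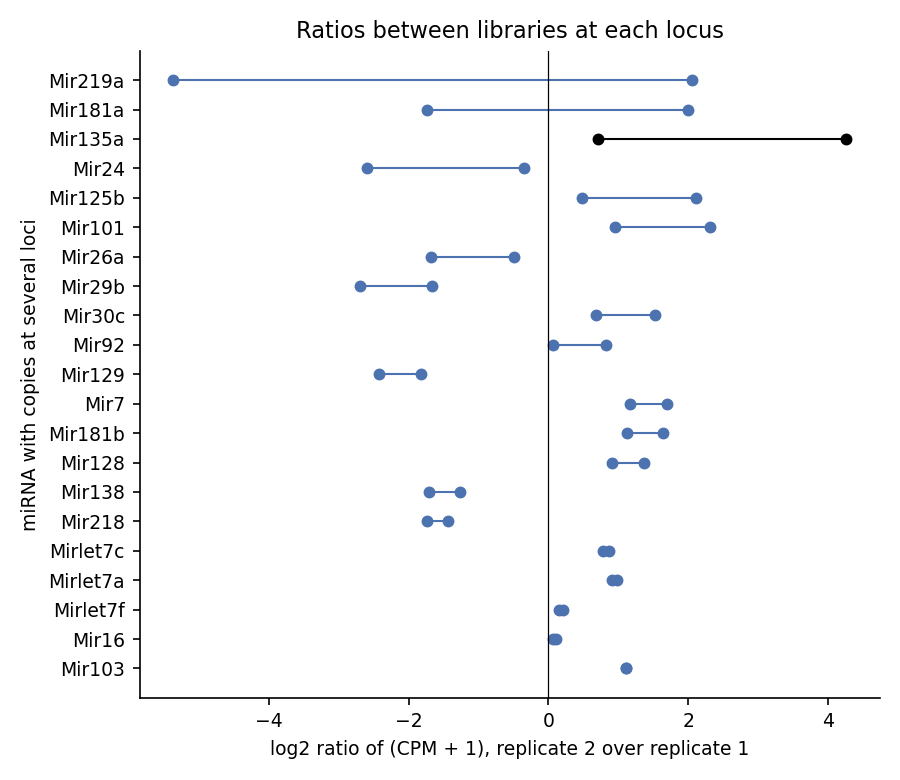
Log2 ratio of CPM + 1, replicate 2 over replicate 1, at each locus (point) of Mir135a (black) and of 20 other miRNA families with several loci (blue), joined by a line per family and ordered by the gap between loci. The Mir135a copies, at 4.26 and 0.71, are the third widest pair after Mir219a and Mir181a.

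Markers of epithelial and sensory cells were higher in replicate 2, as were Mir135b and Mir135a-1. In the epithelial list, 6 of 7 genes were detected and all 6 were at least 2-fold higher in replicate 2, with a summed level of 6267 CPM in replicate 2 and 111 CPM in replicate 1, led by Mir200c and Mir429. In the sensory list, 2 of 3 genes, Mir183 and Mir182, were detected and both were at least 2-fold higher. The list summed to 1839 CPM in replicate 2 and 28.3 CPM in replicate 1. Among all 433 detected genes, 26.1% were at least 2-fold higher in replicate 2 and 14.8% at least 2-fold lower. Whether genes of a list come from a shared transcript was not checked, so the counts per list are not counts of independent markers. No gene of these 2 lists was at 0 in either library; the lowest was Mir96 of the sensory list with 1 count in replicate 1. The part of these cells or of the sampled area in the miR-135 levels was not tested.

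Leading genes below are those with the highest mean over the libraries. Among choroid plexus and ciliated genes 4 of 7 were detected, including Mir204 and Mir449a, with 1 at least 2-fold higher in replicate 2, and summed to 2305 CPM in replicate 2 and 984 CPM in replicate 1. The oligodendrocyte list had 4 of 5 detected, led by Mir23a and Mir219a-2, with 1 at least 2-fold higher and 1 lower, and 5300 CPM in replicate 2 and 12982 CPM in replicate 1. Mir219a-2 was at 119 CPM in replicate 2, below Mir338 at 765 CPM, and at 4960 CPM in replicate 1. The endothelial and mural list, led by Mir126a and Mir143, had 3 of 5 detected and none 2-fold apart, with 12895 and 21958 CPM in replicates 2 and 1. Microglia and immune genes, led by Mir150 and Mir146, had 5 of 6 detected, 3 at least 2-fold higher and 1 lower, with 1101 and 1990 CPM. The erythroid list, led by Mir486 and Mir451a, had 3 of 4 detected, 2 of them at least 2-fold lower, with 65.9 and 88.1 CPM. Neuron-enriched genes with a single locus were split, with 3 of 9 at least 2-fold higher and 2 lower, and those with several loci, led by Mir128-1 and Mir128-2, had 7 of 10 detected, 3 higher and 2 lower, with 31918 and 23294 CPM. Mir135b and Mir135a-1 thus differed between the libraries in the direction of the epithelial and sensory lists. Among the detected choroid plexus and ciliated genes, Mir449a had a log2 ratio of 3.48. The others, at 0.38 to 0.48, lay near the median of 0.27 for all detected genes. The neuron, oligodendrocyte, microglia and immune, and erythroid lists showed no common direction. The detected endothelial and mural genes had log2 ratios from -0.93 to -0.07. Some lists were taken over from earlier work on these data. The likeness to the epithelial and sensory lists therefore carries no test of a cell type.

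**Figure D5:**
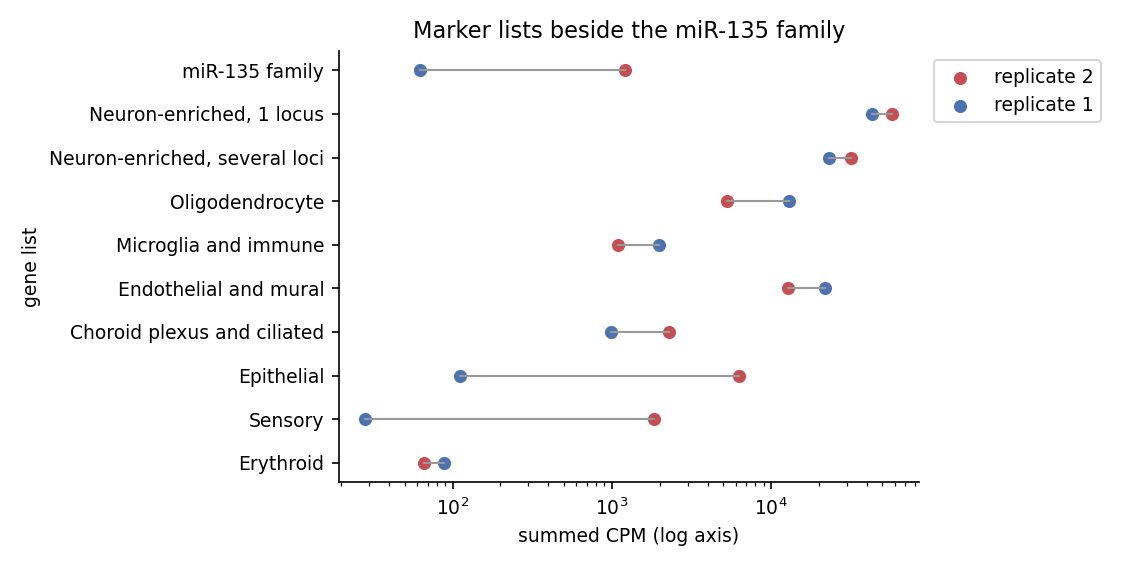
Summed CPM of the miR-135 family and of each marker list in replicate 2 (red) and replicate 1 (blue) on a log axis. The family, at 1209 and 62.4 CPM, and the epithelial and sensory lists have replicate 2 far to the right of replicate 1, while the other lists lie closer together.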

How the data were processed

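The authors deposited 1 table per library with whole-number read counts per miRNA gene. Per the deposited text beside each table, reads were placed on mm10 and counted over GENCODE M21; which aligner, trimming and counting options were used is not given in the sources used for this work. No source used here names the value columns. File column 3, which holds nearly all reads in gene rows and was read from the values as the main strand, was used. For the members, the column read as without strand held the same counts and the one read as the other strand held 0. Rows naming no gene stayed out: reads with several places (46.4% of replicate 2, 41.9% of replicate 1), unmapped reads (17.2% and 17.1%) and reads outside miRNA genes (5.17% and 5.56%). Reads of CAST/EiJ alleles that differ from mm10 may be placed less often; no allele was analysed here. CPM are counts per 1000000 counts in gene rows.

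Intervals for levels, folds and shares are exact, at 95% (scipy 1.17.1). They were tried on simulated Poisson counts, the counting model they assume, which checks the computation and not its fit to these libraries. They cover counting error only and leave out the spread between samples. Because PCR copies are not independent molecules, they can be too narrow even for counting error. The labels call the samples biological replicates; no p-value was computed. The members and lists were chosen with earlier results of these data known, and some marker lists were taken over from earlier work on them. Genes named beside the members are the 3 nearest to each, in each list the 2 detected genes that were highest by mean over the libraries and the loci of Mir124a, Mir9, Mir128 and Mir138; Mirlet7g, Mir1251, Mir137, Mir338, Mir96, Mir219a and Mir181a were named for their position or after their values were seen. The copy families compared include Mir101a with Mir101b. RefSeq (GRCm38.p6) and GENCODE M21 gave the same coordinates for the 3 hairpins. Library scaling with edgeR 4.0.16 and DESeq2 1.42.0, other columns, denominators, pseudocounts, filters and single libraries were tried.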

Additional observations from a re-analysis of the deposited data

How the results depend on the processing

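The direction of every member's difference between the libraries was kept under both other scalings. Scaling with edgeR TMM and with DESeq2 size factors each changed the ratio of the library sizes, replicate 1 over replicate 2, by -0.36 on the log2 scale. On the CPM + 1 scale the median log2 ratio of the detected genes was -0.04 with either, against 0.27 with library totals. The log2 ratio of Mir135b, 4.66, became 4.30 with either scaling and 4.41 with all reads of the table as denominator. For the whole family, 4.25 became 3.90, 3.90 and 4.03 under these settings, and for the Mir135a copies together, 3.00 became 2.64, 2.64 and 2.72. Mir135a-2 alone went from 0.71 to 0.37 with either scaling. Its fold interval of 1.25 to 2.26 holds for library totals, and no interval was computed under the other scalings. The share of detected genes at least 2-fold apart, 40.9%, ran from 33.3% (all genes with a count in either library) to 44.0% (at least 10 CPM in each). Pseudocounts of 0.5 and 5 and counts without strand left the 3 log2 ratios within the counting intervals of their folds.

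Each library alone gave 62.4 to 1209 CPM for the family, 63.2 to 84.3% for the share of Mir135b, and -2.67 to 1.00 for the log2 ratio of Mir135a-2 to Mir135a-1, which changes sign with the library left out. No paired analysis was possible because there is a single group. With 42 and 84 counts in replicate 1, Mir135a-1 and Mir135a-2 are the members whose levels depth limits most.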
